A study of Homo sapiens with 54 samples.

Results

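DNA replication and the G1/S transition were followed here through 49 genes: the subunits and loaders of the MCM helicase, the fork proteins, the replicative polymerases, the sliding clamp and its loader, the enzymes of the lagging strand, the chromatin factors that work behind the fork, and the E-type cyclins and E2F factors that start S phase. The rule used symbols and no measured value, but earlier results of these data were known when the members were chosen. It took the genes from the gene tables of the study, where all 49 were found among 59368 genes. RNA-seq was done on DLD-1, HT-29 and HCT-116, established lines of human colorectal cancer. Sensitive cells are the lines as they were, and resistant cells are the same lines carried over months in rising concentrations of 5-fluorouracil (5-FU). Resistant cells were then kept in 5-FU at a concentration above the 10 µM used for treatment. For 24 h, cells of both kinds were kept in 10 µM uracil, which serves as the control, or in 10 µM 5-FU, and a further set was kept in 5-FU and then, after a change of medium, irradiated with X-rays. By the study's methods the irradiated cells got the median lethal dose of the line they were labelled as, so the dose differed between lines. There were 18 groups with 3 replicates each, 54 libraries in all.

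Replication origins are licensed in G1, when ORC, CDC6 and CDT1 load the ring of MCM2 to MCM7 onto DNA, and they fire in S phase, when CDC45 and the GINS complex join that ring to form the moving helicase. Cyclin E with its kinase, and E2F transcription factors released from the RB protein, drive the passage from G1 to S, and most genes of the replication machinery are classic E2F targets. 5-FU blocks thymidylate synthase, which supplies dTTP for DNA synthesis, and its metabolites also enter RNA and DNA.

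RefSeq promoters (GRCh38.p14, from 250 bases before to 50 after the start) were on hand for 40 of the 49 genes. The E2F letters TTTCCCGC, TTTCGCGC, TTTGCCGC and TTTGGCGC, searched on both strands, occurred in 20 of these 40 promoters (50%) against 3.33% of all 27305 promoters. Matches at 2 or more places, which may overlap, were found in 5 of the 40 (12.5%) against 0.154% of all. CCAAT, the box bound by NF-Y, was in 23 (57.5%) against 35.7%, and the CHR letters TTTGAA and TTCGAA of many G2/M genes were in 1 (2.5%) against 16.6%. Such a match describes the letters and is not evidence of a binding site. The stretches below are the matches of the transcription factors E2F1 and E2F2, the licensing factor CDT1, the helicase subunit MCM6 and the clamp PCNA, genes that parted from each other under 5-FU in HT-29 cells. They lie upstream of the start of each gene and outside annotated exons, on chr20:33686386-33686438 (E2F1, minus strand), chr1:23531248-23531295 (E2F2, minus), chr16:88803734-88803781 (CDT1, plus), chr2:135876502-135876615 (MCM6, minus) and chr20:5126654-5126701 (PCNA, minus). Each is read 5′ to 3′ along the strand of its gene, and the capitals mark the E2F letters on either strand.
E2F1: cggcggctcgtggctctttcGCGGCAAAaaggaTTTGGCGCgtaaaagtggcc
E2F2: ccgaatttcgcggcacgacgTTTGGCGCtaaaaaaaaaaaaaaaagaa
CDT1: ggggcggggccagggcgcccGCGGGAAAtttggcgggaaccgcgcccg
MCM6: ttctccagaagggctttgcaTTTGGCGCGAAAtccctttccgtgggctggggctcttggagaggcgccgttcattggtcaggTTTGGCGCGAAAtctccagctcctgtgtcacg
PCNA: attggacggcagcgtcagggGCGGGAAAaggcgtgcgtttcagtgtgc
In E2F1 the matches begin 33 and 20 bases before the start, and in CDT1, E2F2 and PCNA they begin 35, 42 and 59 bases before it. MCM6 holds the same 12 letters at 2 places, each an overlapping pair of matches in opposite directions.

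Library totals ranged from 38957142 to 218518344 estimated counts with a median of 51373543, and no replicate pair agreed within sampling noise. The widest gaps were in resistant DLD-1 cells under uracil. There the chi-square per degree of freedom was 24.5 and 21.1 for replicate 1 against replicates 2 and 3, and 3.33 between those. All 49 genes passed the filter on low counts in every comparison, and their lowest level in any group was that of E2F2 in sensitive HT-29 cells under uracil. The libraries labelled resistant HT-29 carried 62 of 64 genes that mark sensitive HCT-116 cells (96.9%) and 0 of 12 that mark sensitive HT-29 cells, each at 1 TPM or more. Resistant HCT-116 cells also carried 62 of the 64, and resistant DLD-1 cells carried 19 of 20 DLD-1 markers (95.0%). The group is therefore called labelled resistant HT-29 below, and every result that sets it against sensitive HT-29 compares cells that differ in line markers as well as in resistance. Epithelial genes were present throughout, with EPCAM, CDH1, KRT8, KRT18 and KRT20 at 1 TPM or more in all 54 libraries, and the intestinal genes CDX2 and VIL1 in 45 and 27. The leukocyte gene PTPRC, the endothelial gene VWF and the stromal gene COL1A2 reached it in 0 libraries, COL1A1 in 44 and PECAM1 in 22. Levels are given as TPM, which corrects for transcript length and library depth, and fold changes come from the counts with TMM scaling, fitted with edgeR's quasi-likelihood test. A gene was called where its p, adjusted over all genes by Benjamini-Hochberg, was 0.01 or less. The p-values rest on the spread between biological replicates within groups (3 per group), pooled over all groups of a fit. They do not measure how far separately derived resistant populations would differ. In bulk RNA, fewer cells in S phase and less RNA of a gene per cell cannot be told apart.

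Under uracil, sensitive cells of the 3 lines ranked these genes alike at the top. PCNA, the ring that tethers polymerases to DNA, led with 490 to 519 TPM in DLD-1, while it read 391 to 413 TPM in HCT-116 and 352 to 377 TPM in HT-29. MCM7, MCM4 and MCM3 followed in this order in each line. In HCT-116 the neighbours MCM4 (177 ± 3.54 TPM, SD, n = 3) and MCM3 (172 ± 0.951 TPM) differed by about the spread of the former. E2F2 was the lowest gene in each line, with means of 6.49 TPM (DLD-1), 12.9 TPM (HCT-116) and 2.96 TPM (HT-29) over 3 libraries. In HCT-116 its replicates overlapped those of POLD3 and E2F8, whereas in HT-29 it lay apart from its neighbour GINS3, which had at least 10.9 TPM.

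5-FU against uracil in sensitive HCT-116 cells lowered nearly the whole set. Of the 49 genes 48 fell and 0 rose, against 24.4% of the 22975 genes tested that fell and 17.6% that rose, and 33 of them fell at least 2-fold, which 3.36% of all genes did (4.79% rose as much). The median log2 change of the 49 genes was −1.23, against 0.03 over all genes. The summed level of the 49 genes went from 3495 to 1661 TPM (means, n = 3).

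POLA2, the regulatory subunit of DNA polymerase alpha, measured 23.4, 20.8 and 23.4 TPM in the uracil libraries and 5.20, 6.23 and 5.48 TPM with 5-FU. The groups lay far apart, and the log2 change was −2.0 ± 0.08 (SE, edgeR adjusted p = 5.1e-15), the deepest of the set. MCM7 read 273, 273 and 281 TPM under uracil and 104, 106 and 106 with 5-FU, a log2 change of −1.69 ± 0.04 (edgeR adjusted p = 5.7e-19). MCM5 measured 135, 133 and 140 TPM against 42.8, 42.9 and 43.8, or −1.66 ± 0.05 on the log2 scale (edgeR adjusted p = 1.3e-17). Every treated library lay far below every control in both of these helicase subunits. GINS2, of the 4-part complex that completes the helicase, measured 42.0, 42.3 and 43.0 TPM and then 15.0, 14.6 and 13.7, with a log2 change of −1.61 ± 0.05 (edgeR adjusted p = 6.1e-17).

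By role, all 12 licensing genes fell (median log2 change −1.28), as did all 9 helicase and fork protection genes (−1.25), all 8 polymerase and primase genes (−1.26), all 10 genes of the clamp, its loader and the single-strand binding complex (−1.17), both FEN1, which trims flaps, and LIG1, which seals nicks, and all 3 chromatin genes. Within complexes the sizes differed. MCM2 to MCM7 ran from −1.0 (MCM3) to −1.69 (MCM7), the RFC subunits from −0.73 (RFC1) to −1.41 (RFC5), and the GINS subunits from −0.96 (GINS3) to −1.61 (GINS2). RPA3, the smallest subunit of the single-strand binding complex, fell by 1.51 on the log2 scale, further than RPA1 (−0.83) and RPA2 (−0.85). PCNA fell from 399, 391 and 413 TPM to 215, 213 and 210 (log2 −0.92 ± 0.04, edgeR adjusted p = 6.6e-14). UHRF1, which brings maintenance methylation to new DNA, went from 82.3, 84.1 and 80.6 TPM to 50.4, 48.1 and 47.2 (−0.77 ± 0.04, edgeR adjusted p = 4.7e-13). MCM2 of the helicase ring read 99.3, 98.4 and 94.5 TPM and then 37.7, 37.0 and 38.1, with no overlap in either gene. CDC6 went from 114, 111 and 118 TPM to 45.2, 45.4 and 47.7 and CDT1 from 65.0, 64.9 and 66.9 to 30.8, 28.9 and 28.7, with log2 changes of −1.32 ± 0.05 and −1.23 ± 0.06.

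The E-type cyclins had the smallest changes of the set. CCNE1, which activates CDK2 at the end of G1, was the single gene of the 49 not called, at 36.2, 38.1 and 35.6 TPM under uracil and 41.2, 42.4 and 40.5 with 5-FU. Its treated libraries were all above the controls, but the log2 difference of 0.17 ± 0.06 missed the threshold (edgeR adjusted p = 0.029). CCNE2 moved by −0.35 ± 0.06 (edgeR adjusted p = 9e-05), from 22.3, 25.6 and 22.9 TPM to 17.9, 20.1 and 19.3. E2F1, an activator of S phase genes, fell from 23.9, 23.9 and 24.4 TPM to 11.5, 10.2 and 10.9 (log2 −1.16 ± 0.06, edgeR adjusted p = 3.9e-13). Without any 1 of the replicates, 48 members were still called, and with scaling by library size alone CCNE1 was called higher as well.

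**Figure D1:**
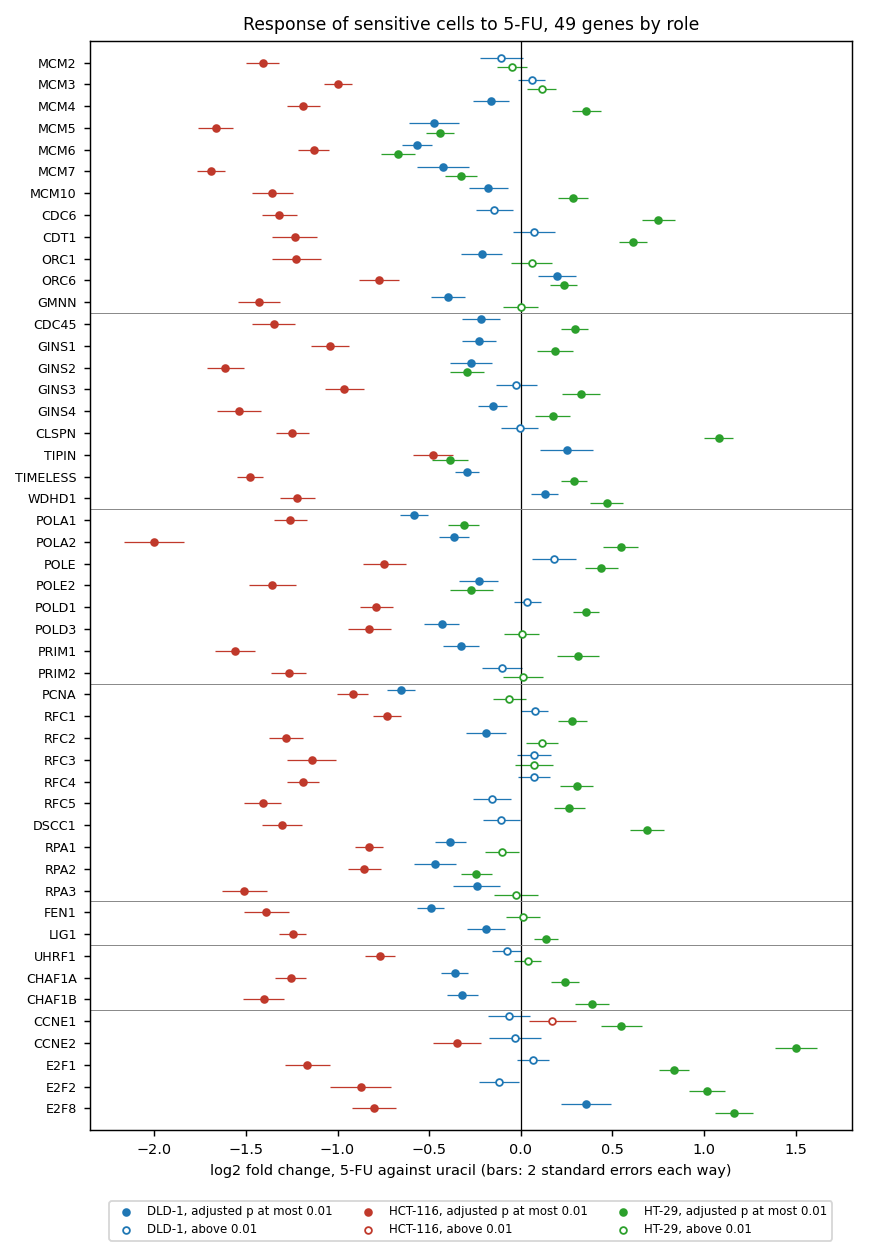
Log2 fold change of each of the 49 genes with 5-FU against uracil in sensitive cells, with 2 standard errors each way, for DLD-1 (blue), HCT-116 (red) and HT-29 (green), grouped by role from licensing at the top to G1/S regulators at the bottom. Filled points have an edgeR adjusted p of at most 0.01. In HCT-116 all genes but CCNE1 lie left of 0, down to −2.0 for POLA2, while in HT-29 CCNE2, E2F8, CLSPN and E2F2 lie to the right of 1.

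5-FU against uracil in sensitive HT-29 cells gave the opposite majority. Here 28 of the 49 genes rose and 8 fell, against 22.1% and 24.9% of the 23756 genes tested, and 4 rose at least 2-fold (8.86% of all genes) while none fell as much (3.3%). The median log2 change was 0.24, against 0.03 over all genes, and the summed level went from 3168 to 4253 TPM. All 5 G1/S regulators rose, with a median of 1.02.

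CCNE2 measured 14.6, 16.0 and 15.1 TPM under uracil and 50.9, 51.9 and 49.2 with 5-FU. This was the largest rise of the set, 1.5 ± 0.06 on the log2 scale (edgeR adjusted p = 3e-17). The other E-type cyclin, CCNE1, rose by 0.55 ± 0.06 (edgeR adjusted p = 2.8e-09), from 27.9, 30.3 and 25.8 TPM to between 48.4 and 49.9 in the 3 treated libraries. E2F8, an atypical E2F that represses E2F targets, measured 12.7, 13.6 and 13.4 TPM and then 35.1, 36.3 and 37.4 (log2 1.16 ± 0.05, edgeR adjusted p = 4.1e-16). The activators rose too. E2F1 went from 41.1, 42.4 and 40.2 TPM to 89.4, 86.9 and 85.0 (0.84 ± 0.04, edgeR adjusted p = 3.5e-15), and E2F2 from 2.87, 2.90 and 3.13 to 7.63, 6.87 and 6.60 (1.02 ± 0.05, edgeR adjusted p = 2.9e-15). CLSPN, the adaptor through which ATR activates CHK1 at stalled forks, stood at 20.4, 21.4 and 21.2 TPM under uracil and at 53.6, 50.7 and 52.6 with 5-FU, a log2 change of 1.08 ± 0.04 (edgeR adjusted p = 1.2e-17). In none of these genes did treated and control libraries overlap.

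The licensing machinery of HT-29 cells split. The loaders CDC6 and CDT1 rose, CDC6 from 71.6, 76.9 and 74.0 TPM to 159, 150 and 156 (log2 0.75 ± 0.05, edgeR adjusted p = 1.6e-13) and CDT1 from 38.2, 39.8 and 37.6 TPM to 71.8, 69.6 and 68.7 (0.61 ± 0.04, edgeR adjusted p = 2.9e-13). Of the ring they load, MCM4 rose by 0.36, MCM2 (−0.05) and MCM3 (0.11) were not called, and MCM5, MCM6 and MCM7 fell. MCM6 showed the deepest fall, from 68.6, 71.6 and 65.8 TPM to 53.4, 49.7 and 51.2, or −0.67 ± 0.05 (edgeR adjusted p = 2.5e-12). MCM5 changed by −0.44 ± 0.04, MCM7 by −0.33 ± 0.04 and TIPIN, which steadies paused forks with TIMELESS, by −0.38 ± 0.05 (edgeR adjusted p = 3.2e-10, 3.6e-07 and 2.2e-07). In TPM these were narrower differences. MCM5 read 81.0, 79.2 and 77.9 and then 72.5, 67.3 and 76.3, MCM7 272, 281 and 268 and then 261, 260 and 262, and TIPIN 29.4, 29.5 and 28.3 and then 27.9, 26.3 and 25.5, each without overlap. On the scale of counts the subunits of polymerase alpha and its primase parted as well, since POLA2 rose by 0.55 and PRIM1 by 0.31 while POLA1 fell by 0.31. This fall depends on the scale, since POLA1 was not called lower when TPM was tested. PCNA (−0.06 ± 0.04, edgeR adjusted p = 0.25) and UHRF1 (0.04, edgeR adjusted p = 0.42) were not called.

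The count of genes on each side in HT-29 depends on the scale. With library size alone 38 rose and 6 fell, and with limma on log2(TPM + 1) 39 rose and 2 fell. Library size alone moved the median of all genes from 0.03 to 0.19 and that of the 49 genes from 0.24 to 0.39. Relative to all genes the 49 stood about as far up on both count scales. MCM2 turned to 0.11 with library size alone and 0.23 on the TPM scale, and PCNA turned to 0.18 on the TPM scale. On that last scale TIPIN (−0.13) and MCM7 (−0.07) were no longer called, and POLA1 was not called lower.

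**Figure D2:**
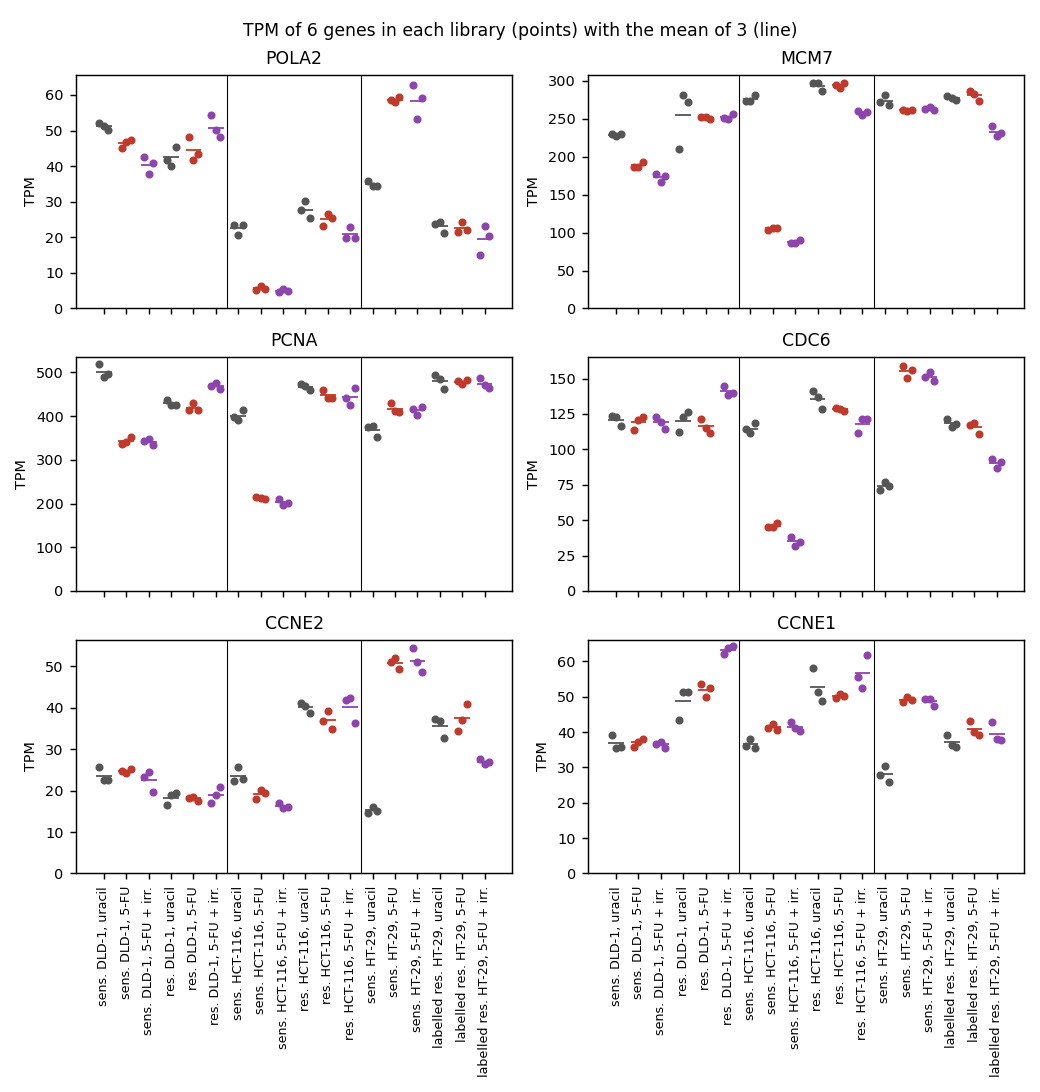
TPM of POLA2, MCM7, PCNA, CDC6, CCNE2 and CCNE1 in every library of the 18 groups (1 point per library, 3 per group, linear axis from 0). POLA2, MCM7 and CDC6 drop in sensitive HCT-116 cells with 5-FU, and CCNE2 in sensitive HT-29 cells goes from 16.0 TPM or less to 49.2 TPM or more, while CCNE1 of the same HCT-116 cells stays between 35.6 and 42.8 TPM.

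Among the sensitive cells of the 3 lines, the set's median change with 5-FU against uracil was smallest in DLD-1. Here 26 of the 49 genes fell and 4 rose, against 20.3% and 14.4% of the 21814 genes tested. None of the 49 changed 2-fold, as 2.66% of all genes did upward and 1.37% downward, and the median log2 change was −0.16 against 0.01 over all genes. The largest fall was that of PCNA, from 519, 490 and 496 TPM to 335, 340 and 352 (log2 −0.65 ± 0.04, edgeR adjusted p = 2.4e-11). POLA1, the catalytic subunit of polymerase alpha, went from 19.6 to 20.1 TPM in the 3 control libraries to between 14.2 and 14.8 TPM with 5-FU (−0.58 ± 0.04, edgeR adjusted p = 1.7e-10). MCM6 read 127, 121 and 122 TPM and then 88.3, 88.1 and 92.2, and FEN1 read 107, 102 and 103 TPM and then 78.5, 79.7 and 81.3, with log2 changes of −0.56 ± 0.04 and −0.49 ± 0.04 (edgeR adjusted p = 6.5e-10 and 9.1e-10). In each of these genes every treated library was below every control.

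The 4 genes that rose in DLD-1 were E2F8 (0.36 ± 0.07, edgeR adjusted p = 0.00018), TIPIN (0.25 ± 0.07), the origin recognition subunit ORC6 (0.20 ± 0.05) and the fork protein WDHD1 (0.13 ± 0.04). E2F8 measured 15.2, 16.7 and 16.8 TPM under uracil and 22.7, 25.1 and 21.2 with 5-FU. TIPIN read 37.0, 34.4 and 35 and then 43.0, 43.6 and 48.6 TPM, and ORC6 52, 55.2 and 53.5 and then 70.1, 67.6 and 67.6. WDHD1 went from 29.4, 29.3 and 33.6 TPM to 37.5, 36.3 and 33.6, where the highest control lies beside the lowest treated library. CCNE1 (−0.06), CCNE2 (−0.03), E2F1 (0.07), CDT1 (0.07), CDC6 (−0.14), MCM2 (−0.11) and UHRF1 (−0.08) were not called, with edgeR adjusted p from 0.028 to 0.75. The 3 subunits of RPA all fell, whereas of the RFC subunits RFC2 alone was called (−0.19). Without replicate 2 or without replicate 3 of every group 18 genes were called in place of 30, and TIPIN, ORC6 and WDHD1 were each lost in at least 1 such fit. With library size alone 11 rose and 15 fell, as the median of all genes went from 0.01 to 0.12, and with limma on log2(TPM + 1) 10 rose and 13 fell.

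Set side by side, 7 of the 49 genes fell with 5-FU in all 3 sensitive lines: MCM5, MCM6, MCM7, GINS2, POLA1, POLE2, a subunit of polymerase epsilon, and RPA2. These shared falls depend on the scale: with library size alone MCM5, MCM6, MCM7 and POLA1 kept them, with limma on log2(TPM + 1) MCM5 and MCM6 did, and POLE2 lost its place in each fit without 1 replicate. Another 11 fell in DLD-1 and HCT-116 and rose in HT-29, among them CDC45, MCM4, POLA2, PRIM1 and LIG1. Of these 11, 5 kept that pattern with library size alone and 3 (CHAF1A, PRIM1 and TIMELESS) with limma on log2(TPM + 1), while 6, 5 and 6 did without replicate 1, 2 and 3, and LIG1 was in none of these. A further 13, with CDC6, CDT1, CCNE2, E2F1, E2F2 and CLSPN among them, fell in HCT-116, rose in HT-29 and were not called in DLD-1. PCNA, FEN1, POLD3, ORC1, RPA1, RPA3, RFC2 and GMNN, the inhibitor that holds CDT1 back after licensing, fell in DLD-1 and HCT-116 and were not called in HT-29. MCM2, MCM3, RFC3, PRIM2 and UHRF1 were called in HCT-116 alone. ORC6, E2F8 and WDHD1 rose in DLD-1 and HT-29 and fell in HCT-116, TIPIN rose in DLD-1 and fell in the other lines, and CCNE1 was called in HT-29 alone. The 13, the 8 and the 5 genes of the groups from CDC6 to UHRF1 kept 8, 2 and 0 members with library size alone and 9, 1 and 0 with limma. Across the 49 genes the log2 changes of DLD-1 and HT-29 had a Pearson r of 0.52 (Spearman 0.55), those of DLD-1 and HCT-116 0.41 (0.50) and those of HCT-116 and HT-29 0.25 (0.20). These are descriptions across genes of the same machinery, which are not independent of each other. The genes with E2F letters in the promoter had a median log2 change of −1.20 in HCT-116 and 0.13 in HT-29 (n = 20), and the 20 promoters without them −1.26 and 0.27.

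The differences between lines were tested in 1 fit over all 54 libraries. The response of HCT-116 was lower than that of DLD-1 for 48 of the 49 genes, which held for 13.3% of all genes, and lower than that of HT-29 for 48 (19.9% of all genes). POLA2 showed the largest gap in both, at −1.63 ± 0.09 against DLD-1 and −2.60 ± 0.09 against HT-29 (edgeR adjusted p = 5.8e-21 and 3.6e-29). GINS4 came next against DLD-1 (−1.38 ± 0.07) and CLSPN against HT-29 (−2.38 ± 0.07). The response of HT-29 was higher than that of DLD-1 for 37 genes and lower for 1, against 15.7% and 11.4% of all genes. CCNE2 led with 1.60 ± 0.10 and E2F2 followed with 1.20 ± 0.10 (edgeR adjusted p = 4.2e-19 and 7.1e-14), and the gene on the other side was TIPIN at −0.57 ± 0.09 (edgeR adjusted p = 4.3e-07).

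**Figure D3:**
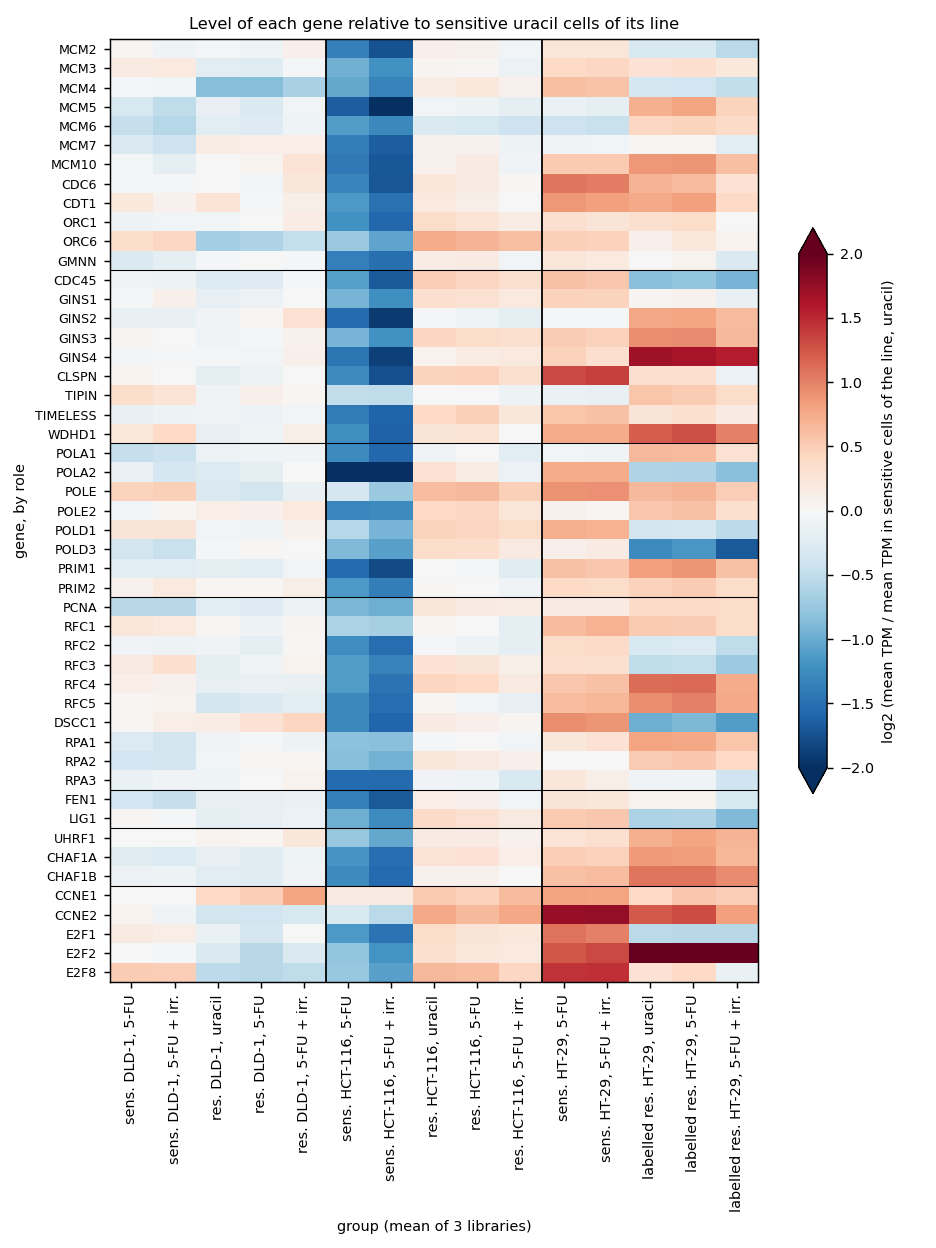
Log2 ratio of the mean TPM of each group to the mean TPM of the sensitive uracil group of its line, for the 49 genes (rows, by role) and the other 15 groups (columns). Red is higher and blue lower, and colours are capped at 2 either way. The columns of sensitive HCT-116 cells with 5-FU are blue nearly throughout and those of sensitive HT-29 cells mostly red, and the columns labelled resistant HT-29 are set against sensitive HT-29 cells, whose line markers they lack.

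The genes around the set were read from 3 lists: 25 further replication genes, 32 further G1/S control genes and 20 G2/M genes. In sensitive HCT-116 cells with 5-FU, where 24.4% of all genes fell and 17.6% rose, 19 of the replication list fell and 2 rose, led by the RNase H2 subunit RNASEH2A (−1.39) and the origin firing factor TICRR (−1.07), with POLD4 (0.30) and MCIDAS (0.31) on the other side. Of the G1/S control list, 31 genes were tested, 19 fell and 6 rose. CDKN1A, the p53-driven inhibitor of CDK2, went from 220 to 664 TPM (means, n = 3, log2 1.60 ± 0.06, edgeR adjusted p = 1.8e-15), and CCNA2, the S phase cyclin, changed by −1.76. All 20 G2/M genes fell at least 2-fold, with a median of −1.78, which lies below that of the 49 replication genes.

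In sensitive HT-29 cells CDKN1A also rose, from 1.88 to 30.9 TPM (log2 3.91 ± 0.07, edgeR adjusted p = 2.4e-23), beside the rise of the E2F genes. There, where 22.1% of all genes rose and 24.9% fell, 13 of the 25 in the replication list rose and 10 fell, with POLD4 (1.15) and RNASEH2A (0.82) highest and ORC5 (−0.64) and POLD2 (−0.60) lowest. Of the G1/S control list 13 were higher and 14 lower, CDKN2B at 1.30 and CDKN1C at −2.89. The G2/M list had 4 higher and 11 lower, with a median of −0.25. In sensitive DLD-1 cells CDKN1A was not called (7.78 and 6.38 TPM, edgeR adjusted p = 0.14), the replication list had 7 higher and 6 lower, the G1/S control list 4 and 7, and 9 of the 20 G2/M genes rose with none lower, where 14.4% of all genes rose and 20.3% fell.

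No response of the set to 5-FU was called in resistant DLD-1, resistant HCT-116 or labelled resistant HT-29 cells. The last of these carried HCT-116 markers and 0 of 12 HT-29 markers, so the response of resistant HT-29 cells was not tested. Of the 49 genes 0 were called in resistant DLD-1, where 0.385% of all genes were, 0 in resistant HCT-116 (0.0% of all genes) and 0 in labelled resistant HT-29 (0.0421%). DESeq2 called 1, 0 and 0 of them, and 14, 7 and 0 had an unadjusted edgeR p below 0.05, as did 18.5%, 8.17% and 5.39% of all genes. The member medians were 0.05, −0.06 and 0.00 on the log2 scale. POLA2 in resistant HCT-116 cells read 27.8, 30.2 and 25.4 TPM under uracil and 23.1, 26.4 and 25.5 with 5-FU, overlapping groups, and MCM7 read 297, 297 and 287 against 294, 290 and 298. CCNE2 in labelled resistant HT-29 cells read 37.2, 36.8 and 32.8 TPM against 34.4, 37.1 and 40.8. PCNA in resistant DLD-1 cells read 437, 426 and 426 against 415, 429 and 414.

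The difference in response between resistant and sensitive cells was itself tested by the interaction term. In HCT-116 it was positive for 47 of the 49 genes and negative for 1, against 18.3% and 11.4% of all genes, and 32 were at least 2-fold higher (3.05% of all genes, with 3.06% as much lower). POLA2 (1.90 ± 0.11) and MCM7 (1.66 ± 0.05) led (edgeR adjusted p = 5.3e-12 and 6.2e-16), and CCNE1 was the negative one (−0.30 ± 0.09, edgeR adjusted p = 0.0099), a call that was lost without replicate 1, 2 or 3 (−0.26, −0.31 and −0.33). In DLD-1 it was positive for 25 and negative for 1, against 13.7% and 9.12% of all genes, with POLA1 at 0.68 ± 0.06, PCNA at 0.64 ± 0.05 and E2F1 at −0.23 ± 0.06 (edgeR adjusted p = 1.2e-08, 1.9e-08 and 0.0077). The call of E2F1, the negative one, was lost with the replicate number as a block (edgeR adjusted p = 0.012), without replicate 1, 2 or 3 (0.029, 0.034 and 0.071), in a fit of only the groups compared (0.012) and with the deepest library thinned (0.011). The DLD-1 count of 26 went to 17 without replicate 1 and to 13 without replicate 2 or 3, and the split of 25 and 1 to 15 and 5 with library size alone and to 8 and 7 with limma on log2(TPM + 1).

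For HT-29 the same term was positive for 8 genes and negative for 23, against 19.3% and 16.1% of all genes. CCNE2 (−1.44 ± 0.08) and E2F8 (−1.16 ± 0.07) lay lowest and MCM6 (0.67 ± 0.07) and MCM5 (0.42 ± 0.06) highest, with edgeR adjusted p of 1.6e-13, 1.8e-12, 3e-09 and 5.2e-07. The split became 4 and 33 with library size alone and 2 and 37 with limma on log2(TPM + 1). Since the labelled resistant cells carry HCT-116 markers, the line and the resistance cannot be told apart in this term.

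**Figure D4:**
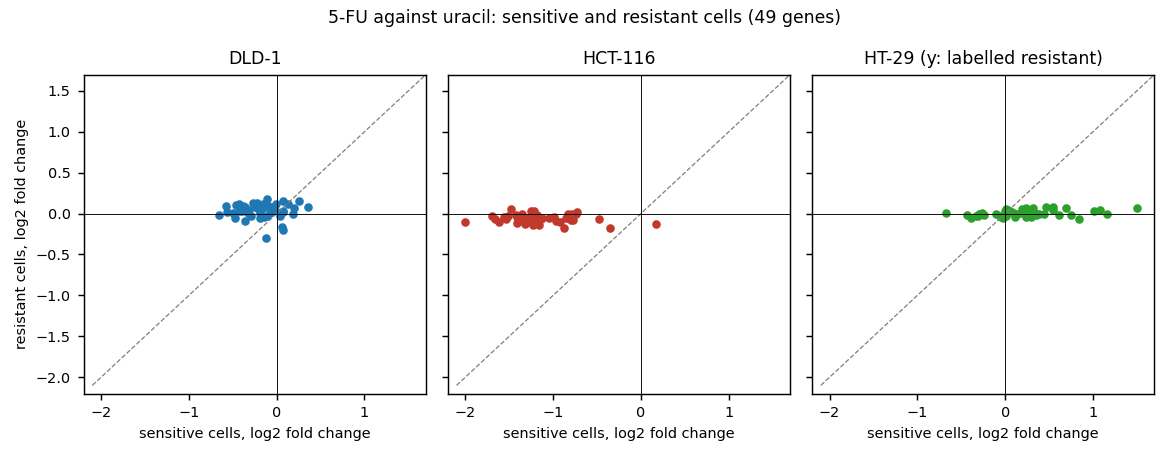
Log2 fold change with 5-FU against uracil in sensitive cells (x axis) and in resistant cells (y axis) of each line as labelled, 1 point per gene, 49 per panel. In HCT-116 the points spread from −2.0 to 0.17 along the x axis and lie close to 0 on the y axis, and in HT-29 they spread to 1.5 along the x axis with the labelled resistant cells within 0.08 of 0.

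Under uracil alone, resistant cells differed from sensitive cells in HCT-116 and DLD-1. Resistant cells had been maintained in 5-FU before, so past exposure to the drug and resistance cannot be told apart here. Labelled resistant HT-29 cells differed from sensitive HT-29 cells too, but there the line markers differ as well. In HCT-116, 25 of the 49 genes were higher in resistant cells and 1 lower, against 16.4% and 24.7% of all genes. All 5 G1/S regulators and 7 of the 9 helicase and fork protection genes were among the higher ones. CCNE2 measured 41.2, 40.3 and 38.7 TPM in resistant cells and 22.3, 25.6 and 22.9 in sensitive cells (log2 0.71 ± 0.06, edgeR adjusted p = 3e-09). ORC6 read 76.1, 78.7 and 63.0 against 42.2, 46.2 and 42.2 TPM (0.64 ± 0.05, edgeR adjusted p = 1.3e-09), and E2F8 22.5, 23.7 and 19.7 against 13.6, 14.1 and 14.3 (0.56 ± 0.06). None of these groups overlapped, and CCNE1 was higher by 0.51 ± 0.06 as well (58.2, 51.2 and 48.7 TPM against 36.2, 38.1 and 35.6, edgeR adjusted p = 5.7e-07). The lower gene was MCM6, at 94.7, 94.1 and 92.8 TPM against 116, 112 and 116 (−0.34 ± 0.04, edgeR adjusted p = 4.8e-07).

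In DLD-1 the balance was the reverse, with 20 genes lower in resistant cells and 2 higher, against 11.5% and 13.1% of all genes. MCM4 alone passed 2-fold, which 2.01% of all genes did downward and 3.69% upward. It stood at 125, 124 and 118 TPM in resistant cells and 220, 225 and 219 in sensitive cells (log2 −1.03 ± 0.05, edgeR adjusted p = 1.3e-12), while its ring partner MCM7 overlapped between the groups (210, 281 and 272 TPM against 230, 228 and 230). The 210 TPM came from replicate 1, the library far from its mates, and the other resistant libraries lay above all sensitive ones. ORC6 read 31.5, 35.2 and 33.3 TPM against 52, 55.2 and 53.5 (−0.71 ± 0.05, edgeR adjusted p = 1.1e-09), the opposite of its direction in HCT-116. E2F8 (9.32, 12.5 and 11.9 TPM against 15.2, 16.7 and 16.8, or −0.59 ± 0.07) and the clamp loader subunit RFC5 (53.2, 61.3 and 60.5 TPM against 76.5, 76.8 and 73.4, or −0.43 ± 0.05) were lower too (edgeR adjusted p = 1.2e-06 and 1.3e-06). CCNE1 was higher, at 43.4, 51.2 and 51.4 TPM against 39.1, 35.5 and 35.6 (0.44 ± 0.06, edgeR adjusted p = 3.2e-06), and so was CDT1, at 38.2, 40.9 and 41.3 against 33.2, 32.4 and 34.0 (0.25 ± 0.06, edgeR adjusted p = 0.0019). The count of 22 went to 14 without replicate 1, to 12 without replicate 3 and to 12 when only these 2 groups were fitted.

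Labelled resistant HT-29 cells had 23 genes above and 17 below sensitive HT-29 cells, against 34.1% and 34.3% of all genes, and the split became 32 and 11 with library size alone and 33 and 11 with limma on log2(TPM + 1). E2F2 differed most, at 13.6, 13.8 and 14.8 TPM against 2.87, 2.90 and 3.13 (log2 1.92 ± 0.05, edgeR adjusted p = 3.8e-22). GINS4 (1.44 ± 0.05), the chromatin assembly subunit CHAF1B (0.98 ± 0.05) and CCNE2 (0.97 ± 0.06) followed. GINS4 read 46.9, 51.1 and 50.1 TPM against 16.1, 15.9 and 13.9, CHAF1B 26.3, 25.7 and 25.7 against 12.4, 13.3 and 11.2, and CCNE2 37.2, 36.8 and 32.8 against 14.6, 16.0 and 15.1. On the other side stood POLD3 (−1.44 ± 0.05), DSCC1 of the cohesion clamp loader (−1.30 ± 0.05), CDC45 (−1.16 ± 0.04) and LIG1 (−1.0 ± 0.03). POLD3 read 15.2, 16.8 and 14.8 TPM against 36.9, 37.1 and 39.0, CDC45 44.9, 40.5 and 41.3 against 74.8, 73.5 and 78.5, LIG1 55.1, 50.5 and 54.6 against 80.2, 80.7 and 88.2, and DSCC1 between 49.5 and 51.1 against 95.1 or more. In none of these 7 genes did the groups overlap. Set against sensitive HCT-116 cells in place of sensitive HT-29 cells, the same libraries had 5 genes higher and 11 lower, against 12.4% and 17.8% of all genes, and E2F2 read 11.9, 13.7 and 13.1 TPM in those cells. That split turned to 15 and 8 with library size alone and to 16 and 3 with limma on log2(TPM + 1). CCNE2 (0.51 ± 0.07) and GINS4 (0.48 ± 0.05) were the highest and MCM6 (−0.45 ± 0.05) and PRIM1 (−0.44 ± 0.05) the lowest, with edgeR adjusted p of 1.7e-08, 6.8e-12, 1.2e-11 and 4.2e-09.

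Irradiation added to 5-FU gave 39 calls among the 49 genes in labelled resistant HT-29 cells and 29 in sensitive HCT-116 cells, 8 each in resistant HCT-116 and resistant DLD-1 cells, and 0 in sensitive DLD-1 and sensitive HT-29 cells. These comparisons use the 5-FU groups as their control. The study's methods name a change of medium before irradiation and do not state whether the 5-FU groups had it. If they did not, the change of medium and irradiation cannot be told apart. By the study's methods each line had its own dose, so groups labelled HT-29 and HCT-116 also differed in dose. In labelled resistant HT-29 cells 39 of the 49 genes fell and 0 rose, against 6.94% and 7.48% of all genes, with a median of −0.25. CCNE2 read 34.4, 37.1 and 40.8 TPM with 5-FU and 27.6, 26.3 and 26.9 with irradiation (log2 −0.66 ± 0.06, edgeR adjusted p = 5.8e-09), and CLSPN read 27.2, 26.8 and 25.9 and then 17.3, 21.5 and 19.0 (−0.56 ± 0.04, edgeR adjusted p = 5.3e-10). The groups did not overlap in either gene. All but 2 of the 12 licensing genes and all but 1 of the helicase and fork protection genes were among those that fell. CDKN1A rose in the same cells, from 175 to 383 TPM (1.14 ± 0.05, edgeR adjusted p = 9.2e-15), and 16 of the 20 G2/M genes fell. Without replicate 2 of every group the count of 39 went to 23.

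In sensitive HCT-116 cells, where 5-FU had already lowered the set, irradiation lowered 29 genes further and raised 0, against 0.918% and 0.00871% of all genes. CDC45 read 17.5, 15.7 and 17.3 TPM with 5-FU and 11.8, 11.3 and 10.8 with irradiation (log2 −0.54 ± 0.07, edgeR adjusted p = 1.3e-05), and CLSPN read 8.91, 9.51 and 10.1 and then 6.95, 6.41 and 7.09 (−0.45 ± 0.05, edgeR adjusted p = 2.1e-06). The count was 17, 7 and 10 without replicate 1, 2 and 3. In resistant HCT-116 cells 8 genes fell and 0 rose (0.884% and 1.7% of all genes), led by WDHD1 (−0.26 ± 0.05, edgeR adjusted p = 0.0012) and POLA1 (−0.24 ± 0.04, edgeR adjusted p = 0.002), and none of the 49 was called without any 1 replicate. In resistant DLD-1 cells 8 rose and 0 fell (2.42% and 1.43% of all genes), led by E2F1 (0.33 ± 0.05, edgeR adjusted p = 0.00016) and CDC6 (0.29 ± 0.05, edgeR adjusted p = 0.0014). There the count went to 7, 0 and 0 without replicate 1, 2 and 3 and to 18 when only these 2 groups were fitted. E2F1 read 19.0, 17.3 and 19.1 TPM with 5-FU and 23.2, 22.4 and 25.0 with irradiation.

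In sensitive DLD-1 and sensitive HT-29 cells edgeR called 0 of the 49 genes, as did DESeq2, against 0.0642% and 0.00842% of all genes called in either direction by edgeR. At an unadjusted edgeR p below 0.05 there were 11 genes in DLD-1 and 0 in HT-29, where 11.2% and 3.31% of all genes passed it. In DLD-1 the log2 differences lay between −0.21 and 0.13, and HT-29 had them between −0.12 and 0.08.

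**Figure D5:**
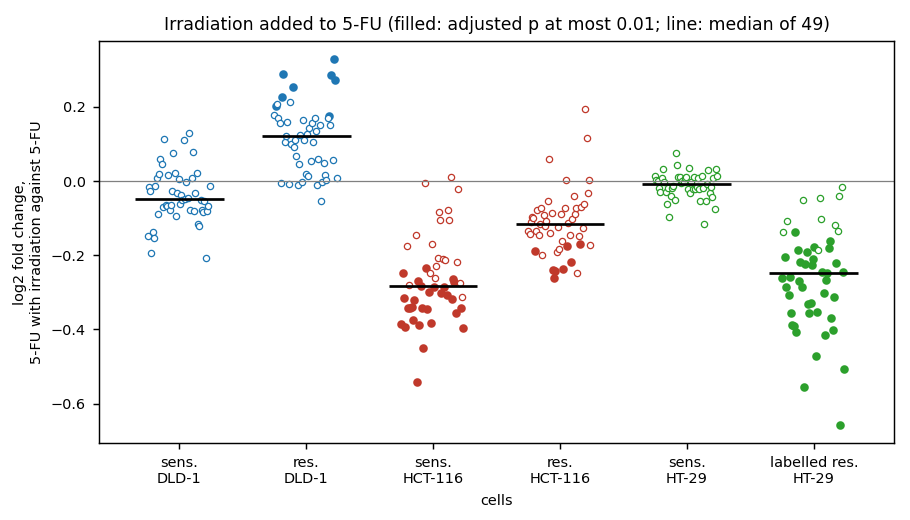
Log2 fold change of 5-FU with irradiation against 5-FU alone for the 49 genes in the 6 kinds of cells (1 point per gene, filled at an edgeR adjusted p of at most 0.01, line at the median). The medians are −0.25 in labelled resistant HT-29, −0.28 in sensitive HCT-116, −0.12 in resistant HCT-116, 0.12 in resistant DLD-1, −0.05 in sensitive DLD-1 and −0.01 in sensitive HT-29.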

How the data were processed

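Poly(A) RNA, enriched from the total RNA of 54 cultures, was sequenced as paired, directional libraries. As the submitters' processing notes and the study's methods state, the authors trimmed reads with Trimmomatic 0.36 and quantified them with kallisto 0.44.0 on GRCh38.p13 transcripts. They deposited estimated counts per gene, which are not normalized and are not whole, and TPM per gene and transcript, which are corrected for length and depth. Kallisto splits reads among transcripts by estimate, and the sum over transcripts equalled the gene total in 54 of 54 libraries.

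The estimated counts were rounded and tested with edgeR 4.0.16 (quasi-likelihood, TMM, filterByExpr) in R 4.3.3, in 1 fit per line over 18 libraries in 6 groups (12 residual degrees of freedom) and in 1 fit over all 54 libraries for differences between lines. Adjusted p-values (Benjamini-Hochberg) cover all genes tested, in 22 comparisons. The step was tested on simulated counts. A line marker had at least 10 TPM in each sensitive group of its line and at most 0.1 TPM in those of the others.

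Members, roles and lists were chosen with earlier results of these data known. Values per library are given for the 4 largest called rises and falls in each 5-FU and resistance comparison, for MCM2, CDC6, CDT1, PCNA, CCNE1, CCNE2, E2F1 and UHRF1 in at least 1 line, and otherwise the 2 largest of each direction are named. Alternatives were DESeq2 1.42.0, library size alone, no filter, fits restricted to the groups of each comparison, a block for the replicate number, leaving out each replicate number, and the deepest DLD-1 library thinned to 22.6% of its counts. Limma 3.58.1 on log2(TPM + 1) was added after seeing the data, because TPM ratios and count folds differed in scale. Equal replicate numbers did not pair libraries: of 45 pairs per line, 2 had a correlation of deviations over 0.1 in HCT-116 and 0 did in either other line. Other steps used Python 3.11.15 with pandas 2.3.3, numpy 2.4.6 and scipy 1.17.1, and matplotlib 3.10.9 for plots. Gene annotation is GENCODE 44 on GRCh38.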

Additional observations from a re-analysis of the deposited data

Results flagged for a closer look

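The response to 5-FU differed between resistant and sensitive cells, by the interaction term of edgeR, for 26 of the 49 genes in DLD-1, where the term was positive for 13.7% and negative for 9.12% of all genes. It differed for 48 genes in HCT-116 (18.3% and 11.4% of all genes) and for 31 in HT-29 (19.3% and 16.1%). Among the sensitive lines the response differed for 48 genes between HCT-116 and DLD-1, where 12% of all genes were higher and 13.3% lower in HCT-116. Between HT-29 and DLD-1 it differed for 38 (15.7% and 11.4% of all genes) and between HCT-116 and HT-29 for 48 (15.0% and 19.9%). The labelled resistant HT-29 libraries in the count of 31 carry markers of HCT-116.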

How the results depend on the processing

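Of the 49 genes, the number called kept within 1.5 times its value under the alternatives in most comparisons, and in HCT-116 48 were called with 5-FU in sensitive cells in each fit without 1 replicate. The exceptions follow, and the cause was not tested. In DLD-1, leaving out replicates gave 18 to 22 in place of 30 (5-FU, sensitive), 12 to 15 in place of 22 (resistant against sensitive, 12 also in a fit of only those groups), 0 to 7 in place of 8 (irradiation, resistant) and 13 to 17 in place of 26 (interaction, 15 with limma on TPM). For irradiation of resistant DLD-1 cells DESeq2 and library size alone each called 14 and a fit of only those groups 18. Where edgeR called 0, no filter gave 1 (irradiation, sensitive DLD-1) and, for 5-FU in resistant DLD-1 cells, 2, with 1 each from DESeq2, library size alone and limma. In HCT-116, irradiation called 7 to 17 in place of 29 in sensitive cells without a replicate (15 with limma) and 0 in place of 8 in resistant cells (3 with only those groups, 2 with limma). Labelled resistant HT-29 cells had 23 to 34 in place of 39 with irradiation. Against sensitive HCT-116 they had 23 called in place of 16 with library size alone and 19 with limma, with the majority then higher. Against sensitive HT-29 the genes past 2-fold were 5, with 3 lower, and became 7 with DESeq2, 7 with only those groups, 7 with limma and 8 with library size alone, with the majority higher, and 6 to 8 without a replicate. In HT-29 with 5-FU MCM2 turned from −0.05 to 0.11 (library size alone) and 0.23 (limma), and PCNA from −0.06 to 0.18 (limma).

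With the replicate number as a block the counts were 29 (5-FU, sensitive DLD-1), 48 (HCT-116) and 36 (HT-29), and for resistant against sensitive cells 19, 26 and 40. The interaction terms gave 24, 48 and 32. The numbers did not pair the libraries, so the block is a check only, and of the genes named it changed the call of E2F1 in the DLD-1 interaction alone. All 49 genes passed the filter on low counts in every fit, whether depth limits the calls was tested only by thinning the deepest DLD-1 library, and 3 replicates per group limit the precision of small differences.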

Other observations

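The deposited transcript values give the share of each gene's TPM that falls on protein-coding transcripts. Its median over the 49 genes was 95.2% in sensitive HCT-116 cells under uracil and 90.2% with 5-FU, against 92.6% and 91.8% in HT-29 and 93.2% and 91.8% in DLD-1. For LIG1 the share was 68.2, 67.6 and 70.8% under uracil and 52.2, 51.3 and 43.7% with 5-FU in HCT-116, and 64.6, 70.5 and 61.5% against 48.0, 47.6 and 46.7% in HT-29, where the gene total of LIG1 rose. In MCM7 it was 46.4, 45.0 and 45.8% against 30.0, 33.5 and 31.1% in HCT-116, and the MCM7 groups of HT-29 overlapped. These shares are kallisto estimates and were not tested.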
